A study of Homo sapiens with 24 samples.

Results

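The cytosolic ribosomal protein genes encode the proteins that, with the rRNAs, build the large (60S) and small (40S) subunits of the cytoplasmic ribosome. A protein-coding gene was counted as a member when its symbol had the RPL or RPS form for a numbered protein of the large or small subunit, or was RPLP0, RPLP1, RPLP2 or RPSA. The kinase genes of the RPS6K series, pseudogenes and the 2 matching genes on chromosome Y were left out. This gave 84 members among 34834 genes, 32 for the 40S subunit and 52 for the 60S subunit including the 3 stalk proteins. All 84 had entries in the tables, and 83 passed the filter for testing, set at 10 or more estimated counts in 3 or more libraries. RPL10L, which did not, is the copy of RPL10 best known from testis.

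Cells make ribosomal proteins in near equal amounts, and the mRNAs are among the most abundant of a dividing cell. Most of these mRNAs begin with a C followed by an unbroken stretch of pyrimidines, the 5′ terminal oligopyrimidine or TOP tract, through which the kinase complex mTORC1 and the RNA-binding protein LARP1 control their translation. Some members have a paralog, a gene copy whose protein can take the same place in the ribosome, and several paralogs are known for expression in particular tissues.

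The series followed SK-MES-1 cells, an established line from squamous cell carcinoma of the lung, by RNA-Seq. After 3 h without growth factors the cells were left untreated or received 2 ng/ml TGFβ1, a cytokine that drives epithelial-to-mesenchymal transition, and RNA was taken from 3 biological replicates per arm at 0, 8, 24 and 48 h, 24 libraries in all. All groups shared this withdrawal. The paper's methods name growth factor-depleted medium for the TGFβ1 stimulation itself. Time after 0 h therefore also runs with time without growth factors, and these cannot be told apart. The 0 h libraries of the TGFβ arm are its starting point. The line is 1 cancer cell line, so no value here extends to normal airway cells. Libraries held 46613589 to 77964234 estimated counts. The epithelial genes KRT8 and KRT18 averaged 567 and 586 TPM and TP63, a squamous regulator, 21.9 TPM, while the basal squamous markers KRT5, KRT6A, KRT14 and DSG3 all averaged below 0.05 TPM. Summed levels were 0.928 to 4.82 TPM for 4 endothelial markers, 0.358 to 2.10 TPM for 4 alveolar markers and 9.34 to 42.1 TPM for 5 immune markers, of which CD68, a lysosomal gene also expressed outside the immune system, made up most.

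The file names carry 4 library codes. Each code covers 1 arm and a pair of neighbouring times, either 0 with 8 h or 24 with 48 h, and the sources used here do not say what it marks. The differences 8 h minus 0 h and 48 h minus 24 h stay within a code. Those between arms cross codes, so arm and code cannot be told apart there. The difference 48 h minus 0 h within an arm also crosses codes, so time and code cannot be told apart in it. In bulk RNA a lower level per cell and fewer expressing cells cannot be told apart either. Replicate 1 of the TGFβ arm at 0 h stood apart from its group, with 12.1% of all TPM in the members against 10.7% and 11.0%. Replicate 2 of that arm stood apart for single members at 0 and 24 h, chosen after their values were seen. RPS15 measured 1519.9, 884 and 1325 TPM in replicates 1, 2 and 3 at 0 h and 1179, 703 and 1071 TPM at 24 h. RPS28 measured 794, 491 and 697 TPM at 0 h, and RPS7 20.7, 42.5 and 18.2 TPM at 0 h and 6.57, 62.0 and 7.53 TPM at 24 h. In untreated cells at 24 h, replicates 1, 2 and 3 measured 1202, 1000 and 1116 TPM for RPS15. They measured 696, 557 and 685 TPM for RPS28 and 10.4, 5.75 and 13.1 TPM for RPS7. Without replicate 2 of the TGFβ arm at 0 or at 24 h, 2 members rather than 1 were called between the arms at 24 h.

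The starts of a few members are shown first because the TOP tract is the sequence feature that the family is known for. Each line gives the 10 bases before and the 20 bases from a transcription start annotated by RefSeq, 5′ to 3′ on the gene's strand. Capitals mark the longest run of C and T that has at least 5 bases and begins with a C within 3 bases of the start. The first 3 genes fell from 0 to 48 h in both arms, the next 3 passed the test in neither arm, and the last 5 are paralogs or their counterparts.
RPSA: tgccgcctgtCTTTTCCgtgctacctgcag
RPS12: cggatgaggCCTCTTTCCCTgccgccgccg
RPLP0: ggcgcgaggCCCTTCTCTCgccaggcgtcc
RPL13A: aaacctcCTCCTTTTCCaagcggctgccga
RPL34: cttttttCTTCCTCTTCCggggacgttgtc
RPL31: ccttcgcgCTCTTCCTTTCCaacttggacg
RPL22: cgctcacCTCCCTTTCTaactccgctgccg
RPL22L1: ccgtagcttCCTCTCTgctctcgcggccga
RPS27: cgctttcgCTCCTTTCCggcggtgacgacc
RPS27L: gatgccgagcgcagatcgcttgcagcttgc
RPL7L1: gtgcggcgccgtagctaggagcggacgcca
On GRCh38.p14 the windows of the first group are chr3:39406710-39406739 (plus strand), chr6:132814559-132814588 (plus strand) and chr12:120201092-120201121 (minus strand). Those of the second group are chr19:49487598-49487627 (plus strand), chr4:108620566-108620595 (plus strand) and chr2:101002279-101002308 (plus strand). The RPL22 window is chr1:6199576-6199605 (minus strand) and the RPL22L1 window chr3:170870176-170870205 (minus strand). The RPS27 window is chr1:153990752-153990781 (plus strand), the RPS27L window chr15:63157458-63157487 (minus strand) and the RPL7L1 window chr6:42879606-42879635 (plus strand). RPSA has a run of 7 bases, RPLP0 of 10 and RPL13A of 10. Genes that fell and genes that did not pass the test thus both have such a run near an annotated start. RPL22 and its paralog RPL22L1 both have one, whereas RPS27L lacks the run that its counterpart RPS27 carries.

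Of the 84 members, 67 had a start in the RefSeq table, and 53 of these (79.1%) had the run in at least 1 window. The share was 16.0% among all 27305 symbols listed there, and among 69 mitochondrial ribosomal protein genes 13.0%. Only the gene strand was searched, and a start annotated elsewhere would be missed.

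Levels are given in TPM, a transcript abundance corrected for length and depth that allows comparison between genes per unit of length. The members ranged from 0.0183 TPM for RPL10L to 5848 TPM for RPL10, a late-joining protein of the 60S subunit, as means over 24 libraries, with a median over members of 1194 TPM. In all, 51 members averaged at least 1000 TPM, 22 lay between 100 and 1000 TPM and 11 lay below 100 TPM. The 5 highest were RPL10, RPL41, RPLP0, RPS29 and RPL37A at 5848, 3042, 2967, 2953 and 2846 TPM. The 4 lowest were RPL10L, RPL3L, RPS7 and RPS27 at 0.0183, 0.984, 16.0 and 24.5 TPM. RPL10L and RPL3L, the striated muscle copy of RPL3, are paralogs, whereas RPS7 and RPS27 are core proteins of the 40S subunit.

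Several core members with low levels lacked their usual transcript in the matched part of the tables. For 8 members, among them RPL11, RPL26, RPL35A, RPS7, RPS10, RPS26 and RPS27, the transcript that GENCODE release 44 names canonical was absent among the matched ones. The remaining transcripts still gave RPL11 1611 and RPL35A 1207 TPM, but RPL26, RPS10, RPS27 and RPS7 only 16.0 to 31.1 TPM. The RPS27 counts came from 3 transcripts, all annotated as retained introns. Values of these 8 genes below speak only for the transcripts that remain, and counts are also given without them. For RPS18, RPS25, RPL7A and RPS9, unmatched transcripts of equal length had exactly the same estimated counts as a member transcript in every library. Adding them would raise RPS18 from 385 to 1920.4 TPM, RPS9 from 52.0 to 311 TPM, RPL7A from 649 to 1299 TPM and RPS25 from 220.4 to 441 TPM.

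Together the 84 members took a smaller mean share of all TPM at each later time in both arms. The libraries at 8 and 24 h overlapped in each arm, and that step crosses library codes. In untreated cells the share was 11.6%, 11.4% and 11.2% at 0 h, 10.8% in all 3 libraries at 8 h, 10.8%, 10.6% and 10.6% at 24 h and 9.44%, 9.49% and 9.62% at 48 h. In the TGFβ arm it was 12.1%, 10.7% and 11.0% at 0 h, 10.3%, 10.2% and 10.1% at 8 h, 10.1%, 9.76% and 10.2% at 24 h and 9.29%, 9.16% and 9.41% at 48 h. Every library at 48 h lay below every library at 0 h of its arm. At 8, 24 and 48 h all 3 TGFβ libraries lay below all 3 untreated libraries, with group means of 10.2% against 10.8%, 9.99% against 10.7% and 9.29% against 9.52%, while the arms overlapped at 0 h. Protein-coding transcripts held 90.2% to 90.8% of the members' TPM in every group, and retained introns 4.55% to 4.96%. Ribosomal protein pseudogenes, 1597 of them in the tables, held 0.196% to 0.272% of all TPM as group means.

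**Figure D1:**
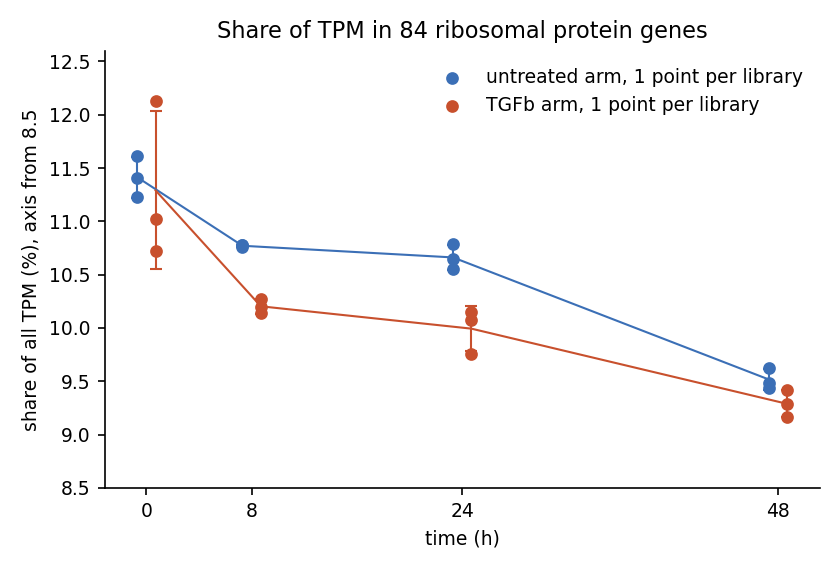
Share of all TPM held by the 84 cytosolic ribosomal protein genes (y axis, percent, starting at 8.5) against time in hours (x axis), with 1 point per library, blue for untreated cells and red for the TGFβ arm, and lines through the group means with SD (n = 3). The share falls in both arms, from group means of 11.4% and 11.3% at 0 h to 9.52% and 9.29% at 48 h.

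Differences over time and between arms were then fitted for each gene with limma voom on estimated counts over all 17453 genes that passed the filter, and a gene was called when its Benjamini-Hochberg adjusted p was below 0.01. Values are differences of log2 CPM (counts relative to library size) after TMM scaling, which sets the median of all genes near 0, so a member below 0 fell relative to the other genes of the library. From 0 to 48 h in untreated cells, 57 of 83 members fell and 1 rose, where 27.1% of all genes were called lower. The median over the members was -0.34, and over all genes 0.01. TPM lack this scaling, so RPL3, for instance, had a 48 h mean TPM of 97.6% of that at 0 h in untreated cells beside a log2 difference of -0.14. In the TGFβ arm 64 members fell and 2 rose, where 28.1% of all genes were called lower, with a median of -0.38 over the members and 0.02 over all genes. In each arm 76 of 83 members were below 0, and 74 were so in both arms. Called lower in both arms were 56 members, where 21.0% of all genes were. The direction is relative to the scale. As an alternative, the summed counts of 4 reference genes (GAPDH and HPRT1 among them) set the scale, so the most abundant of them weighs most. The median over the members then turned to 0.21 in the TGFβ arm and was -0.13 in untreated cells. That of all genes moved to 0.61 and 0.22 in the same order. The shift applies to members and other genes alike. Of the 4 reference genes themselves, 2 were called higher and 2 lower in untreated cells, and 2 were called lower and none higher in the TGFβ arm. Across the 83 members the changes in the arms had a Spearman correlation of 0.88, given as a description, since members of an arm share libraries and scaling.

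**Figure D2:**
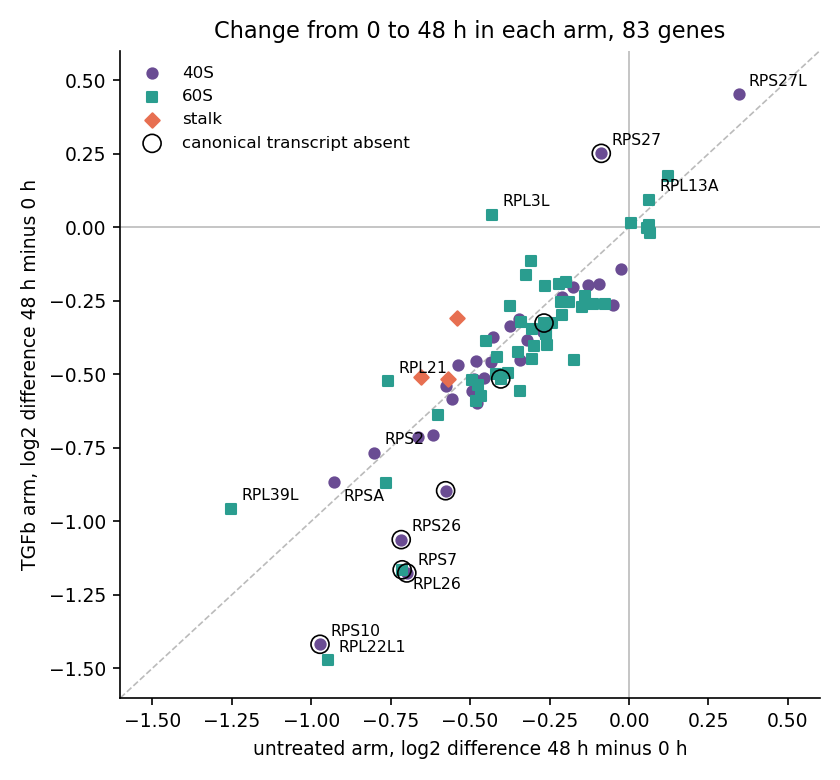
Log2 difference 48 h minus 0 h of 83 members in untreated cells (x axis) and in the TGFβ arm (y axis), from limma voom, with 40S members as circles, 60S members as squares and the stalk as diamonds. Open rings mark the 8 members whose canonical transcript was absent, and the dashed line marks equal change. Most members lie below 0 on both axes near the line, RPL22L1 and RPS10 lie far below it and RPS27L is highest on both axes. Scaled to 4 reference genes the median on the y axis would turn to 0.21.

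Within a library code the members were followed from 0 to 8 h and from 24 to 48 h. From 0 to 8 h, 13 members (15.7%) fell in untreated cells, near the 12.7% of all genes called lower, and 35 in the TGFβ arm, where 16.3% of all genes were. The count of 13 lay between 7, without replicate 1 or 2 of untreated cells at 0 h, and 27, without replicate 1 of the TGFβ arm at 0 h. No member rose in either arm, and the medians over the members were -0.13 and -0.17. From 24 to 48 h, 33 members fell in untreated cells and 26 in the TGFβ arm. Of all genes 13.6% and 13.4% were called lower. The medians over the members were -0.18 and -0.15, and turned to 0.34 and 0.27 with the 4 reference genes as the scale. Under TMM scaling 3 of these 4 genes fell in untreated cells and 2 in the TGFβ arm, with medians of -0.51 and -0.40, and none rose. The shift of that scale applies to all genes alike. The count of 26 was 14 without replicate 2 of the TGFβ arm at 48 h, 15 without replicate 1 of that group and 11 when only the 6 libraries of the groups compared entered the fit. RPL7L1 and RPS10 were the only members called higher there, both in untreated cells. The count of 35 in the TGFβ arm depended on the 0 h library that stood apart, since it was 21 without that library, and it was also 21 without replicate 1 at 8 h and 46 without replicate 2 at 0 h. It was 4 when only the 6 libraries of the 2 groups entered the fit.

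Small subunit members had medians of -0.45 in untreated cells and -0.46 in the TGFβ arm from 0 to 48 h, and large subunit members had medians of -0.31 and -0.35. Of 32 small subunit members 21 fell in untreated cells and 23 in the TGFβ arm. Of 51 large subunit members tested 36 and 41 fell. RPSA, the 40S protein also known as the laminin receptor, fell furthest in untreated cells of the members with a level above 1000 TPM. It measured 1576, 1493 and 1564 TPM at 0 h, 1488, 1502 and 1460.4 at 8 h, 1343, 1257 and 1326 at 24 h and 865, 852 and 877 at 48 h in untreated cells. With TGFβ it measured 1658, 1462 and 1527 TPM at 0 h, 1430.3, 1417 and 1415 at 8 h, 1325, 1276 and 1357 at 24 h and 906, 884 and 941 at 48 h. The 48 h libraries lay below all others in both arms, with means at 56.0% and 58.8% of the 0 h mean TPM. The log2 difference 48 h minus 0 h of RPSA was -0.93 (SE 0.051, adjusted p = 1.16e-12) in untreated cells and -0.87 (SE 0.0512, adjusted p = 3.38e-12) in the TGFβ arm by limma voom. Within the later library code, from 24 to 48 h, the differences were -0.66 and -0.62.

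Several other small subunit members fell by more than their median. RPS2, which lies near the mRNA entry site, fell by 0.80 on the log2 scale in untreated cells and by 0.77 in the TGFβ arm. RPS12 fell by 0.62 and 0.71, RPS21 by 0.66 and 0.71, and RPS20 by 0.58 and 0.54. RPS27A, made as a fusion with ubiquitin, fell by 0.48 and 0.60. RPS6, the substrate of the S6 kinases, fell less, by 0.34 (adjusted p = 6.13e-06 by limma voom) and 0.45 (adjusted p = 1.21e-07). RPS18, a common reference gene in qRT-PCR, measured 408, 401 and 406 TPM at 0 h and 391, 403 and 412 TPM at 48 h in untreated cells. With TGFβ it measured 403, 379.8 and 384 TPM at 0 h and 346, 356 and 392 TPM at 48 h. The groups of RPS18 overlapped in both arms, and its log2 difference was -0.10 (SE 0.0487, adjusted p = 0.0919) in untreated cells and -0.19 (SE 0.0492, adjusted p = 0.00167) in the TGFβ arm by limma voom.

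The stalk proteins RPLP0, RPLP1 and RPLP2, which recruit the translational GTPases to the 60S subunit, all fell in both arms. RPLP0 measured 3409.6, 3106 and 3335 TPM at 0 h and 2386, 2329.6 and 2372 TPM at 48 h in untreated cells, while in the TGFβ arm it measured 3583, 3054 and 3351 TPM at 0 h and 2487, 2457 and 2538 TPM at 48 h. RPLP2 measured 1269, 1321 and 1127 TPM at 0 h and 829, 801 and 882 TPM at 48 h in untreated cells, while in the TGFβ arm it measured 1415, 1299 and 1206 TPM at 0 h and 954, 871 and 913 TPM at 48 h. For both genes every 48 h library lay below every 0 h library of its arm. From 0 to 48 h the log2 differences of RPLP0, RPLP1 and RPLP2 were -0.57, -0.54 and -0.65 in untreated cells. In the TGFβ arm they were -0.52, -0.31 and -0.51, which turned to 0.08, 0.28 and 0.08 with the 4 reference genes as the scale. RPLP1 fell from 24 to 48 h by 0.61 in untreated cells and by 0.25 in the TGFβ arm. The difference between these 2 falls, 0.36 (SE 0.102, adjusted p = 0.0192) by limma voom, missed the threshold.

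Among the other large subunit members, RPL35, which sits at the exit of the peptide tunnel, fell by 0.76 in untreated cells and 0.87 in the TGFβ arm. RPL21 fell by 0.76 and 0.52. RPL5 and RPL11, which bind 5S rRNA and can also hold the p53 regulator MDM2, also fell: RPL11 by 0.40 and 0.52, RPL5 by 0.26 and 0.20. RPL41, the shortest member protein, fell by 0.35 and 0.42, and RPL10 by 0.32 and 0.16. Of the 83 members 16 passed the test in neither arm. RPL13A, also known for a role in translational silencing after interferon, measured 1778, 1644 and 1712 TPM at 0 h and 1828, 1799 and 1829 TPM at 48 h in untreated cells, while in the TGFβ arm it measured 2052, 1628 and 1783 TPM at 0 h and 1929, 1972 and 1854 TPM at 48 h, and the groups overlapped there but not in untreated cells. Its difference 48 h minus 0 h was 0.06 with a 95% interval of -0.11 to 0.23 in untreated cells and 0.09 with an interval of -0.08 to 0.26 in the TGFβ arm. RPL34, RPL31, RPL37 and RPL13 also missed the threshold in both arms, with differences of 0.06, 0.06, 0.06 and 0.01 in untreated cells. In TPM, every untreated 48 h library of RPL34, RPL31 and RPL37 lay above every 0 h library, with means at 111%, 114% and 108% of 0 h. Their 0 and 48 h groups overlapped in the TGFβ arm, and those of RPL13 overlapped in both arms. RPL15 rose by 0.17 in the TGFβ arm (0.00676 as adjusted p by limma voom), and in untreated cells its difference was 0.12 (adjusted p = 0.0464). RPL6, RPL10A, RPL13, RPL31, RPL34, RPL35, RPL37, RPS12, RPS20, RPS21 and RPS26 are named after their values were seen.

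The widest change from 0 to 48 h among the members was that of a paralog in each arm, RPL39L in untreated cells and RPL22L1 with TGFβ. RPS27L, a p53 target whose protein closely resembles RPS27, rose in both arms. It measured 186, 224 and 207 TPM at 0 h, 211, 218 and 224 at 8 h, 249, 276 and 256 at 24 h and 275, 274 and 291 at 48 h in untreated cells. RPS27L in the TGFβ arm measured 194, 218 and 182 TPM at 0 h, 205, 202 and 218 at 8 h, 236, 294 and 269 at 24 h and 293, 270.3 and 303 at 48 h. Every 48 h library lay above every 0 h library of its arm. The log2 difference 48 h minus 0 h of RPS27L was 0.34 (SE 0.0615, adjusted p = 5.01e-05) in untreated cells and 0.45 (SE 0.0619, adjusted p = 1.59e-06) in the TGFβ arm by limma voom. No difference between the arms was called at 48 h, where it was 0.04 with a 95% interval of -0.09 to 0.16.

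RPL22L1, the paralog of the rRNA-binding protein RPL22, fell in both arms. In untreated cells it measured 61.2, 74.2 and 64.2 TPM at 0 h, 54.2, 50.8 and 49.5 at 8 h, 35.4, 35.8 and 34.5 at 24 h and 37.3, 35.4 and 36.7 at 48 h. In the TGFβ arm it measured 65.5, 75.6 and 60.5 TPM at 0 h, 42.4, 44.9 and 45.5 at 8 h, 30.9, 36.2 and 33.2 at 24 h and 25.6, 23.7 and 28.9 at 48 h. The arms overlapped at 0 and 24 h, and at 48 h all TGFβ libraries lay below all untreated ones. The difference 48 h minus 0 h of RPL22L1 was -0.95 (SE 0.0716, adjusted p = 2.18e-10) in untreated cells and -1.47 (SE 0.078, adjusted p = 5.79e-13) in the TGFβ arm, and at 48 h the difference between the arms was -0.47 (SE 0.0825, adjusted p = 8.55e-05) by limma voom. RPL22 itself fell by 0.26 and 0.36, at a level of 862 TPM against 45.1 TPM for the paralog. The transcript with most RPL22L1 counts, 48.5% of them, is annotated for nonsense-mediated decay, and 26.1% belonged to a protein-coding transcript.

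RPL39L, the copy of RPL39 best known from male germ cells, fell in both arms. It measured 126, 113 and 117 TPM at 0 h, 102, 102 and 99.1 at 8 h, 77.1, 78.9 and 79.2 at 24 h and 52.8, 52.6 and 52.8 at 48 h in untreated cells. With TGFβ it measured 129, 112 and 126 TPM at 0 h, 99.8, 99.1 and 98.0 at 8 h, 100.5, 97.7 and 101 at 24 h and 66.3, 67.6 and 69.6 at 48 h. The arms overlapped at 0 and 8 h, and at 24 and 48 h all TGFβ libraries lay above all untreated ones. RPL39L was higher with TGFβ by 0.38 (SE 0.0611, adjusted p = 3.52e-05) at 24 h and by 0.39 (SE 0.0663, adjusted p = 5.86e-05) at 48 h by limma voom. From 24 to 48 h RPL39L had differences of -0.63 in untreated cells and -0.62 in the TGFβ arm, and the difference between them was 0.01 with a 95% interval of -0.18 to 0.20. Its counterpart RPL39 had differences 48 h minus 0 h of -0.15 (adjusted p = 0.0797 by limma voom) and -0.27 (adjusted p = 0.00234).

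RPL26L1 fell in both arms, by 0.49 and 0.52, and measured 129, 125 and 136 TPM at 0 h and 100.3, 94.7 and 96.5 TPM at 48 h in untreated cells. RPL7L1 fell from 0 to 48 h in the TGFβ arm by 0.26 (adjusted p = 1.69e-05 by limma voom), and in untreated cells its difference was -0.07 (adjusted p = 0.134). It rose from 24 to 48 h in untreated cells by 0.28 (SE 0.0426, adjusted p = 2.30e-05) by limma voom, and its difference in the TGFβ arm was 0.10 (adjusted p = 0.0638). The difference between the arms in that interval, -0.17 (adjusted p = 0.061 by limma voom), missed the threshold. The counterpart RPL7 fell in the TGFβ arm from 0 to 48 h by 0.25, and RPL3 fell by 0.14 and 0.23. RPL3L stayed between 0.650 and 1.29 TPM in all libraries and passed no test.

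**Figure D3:**
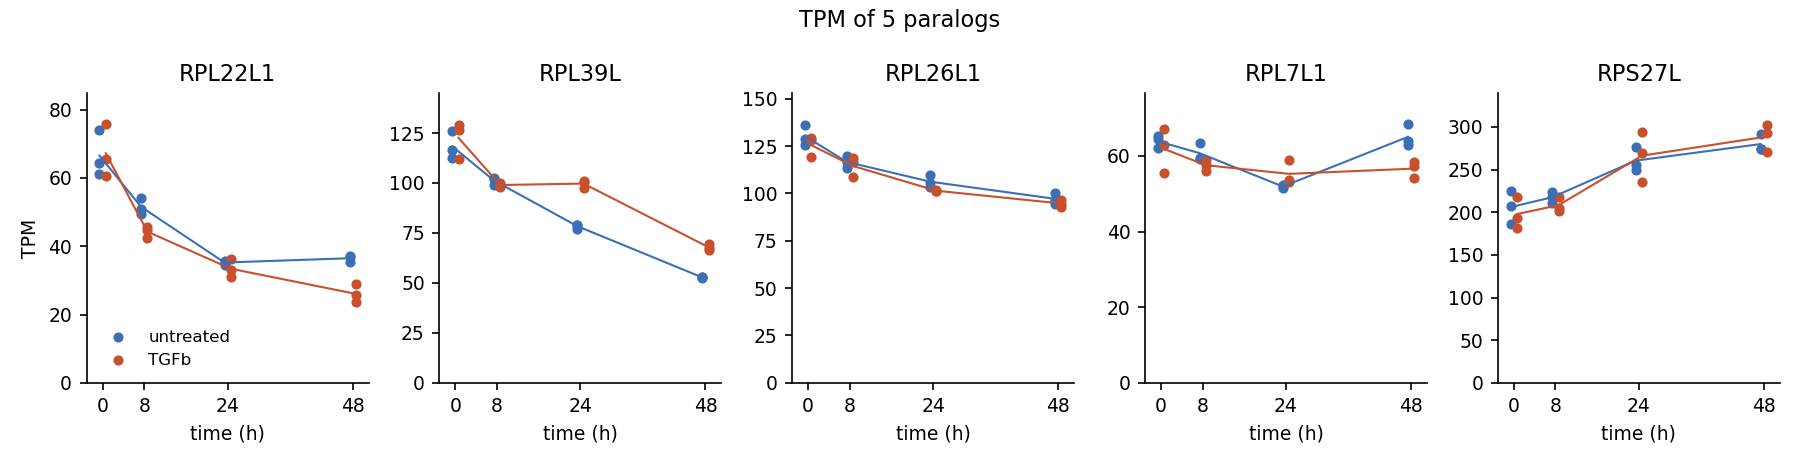
TPM (y axes, from 0, scaled per panel) of 5 paralogs against time in hours (x axes), with 1 point per library, blue for untreated cells and red for the TGFβ arm, and lines through the group means (n = 3). RPS27L rises in both arms, RPL26L1 falls in both, and RPL39L is higher and RPL22L1 lower with TGFβ at 48 h.

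Between the arms few members differed under TMM scaling. Library totals gave more calls at 8, 24 and 48 h, and the 4 reference genes gave more at 24 and 48 h. At 0 h none of 83 differed and none of all genes did (0%), with 3 members and 800 of all genes at an unadjusted p below 0.05 by limma voom and 0 calls by edgeR and DESeq2. At 8 h 1 member differed where 16.4% of all genes did, at 24 h 1 where 29.3% did and at 48 h 9 where 32.6% did. The medians over the members were -0.02, -0.07 and -0.05, beside -0.02, -0.02 and -0.01 over all genes. An F-test over the 3 times called 6 members, where 42.5% of all genes were called: RPL39L, RPL22L1, RPL26, RPL36A, RPS25 and RPS10. The 95% intervals of 79 members at 8 h, 79 at 24 h and 75 at 48 h lay within 0.5 on either side of 0. Of all 17453 genes, 10626, 9185 and 8827 had such intervals at these times. With TMM replaced by library totals, 8, 28 and 22 members were called at the 3 times, of which 8, 27 and 21 were lower, and the median of all genes then lay at -0.10, -0.11 and -0.10. With the 4 reference genes 0, 72 and 64 members were called at the 3 times and 74 by the F-test. The median over the members at 48 h turned to 0.30 and that over all genes moved to 0.34. Under TMM scaling the 4 reference genes themselves had medians of -0.34 at 24 h and -0.35 at 48 h. Of them 2 were called lower with TGFβ at 24 h and 3 at 48 h, and none higher. The fits of log2(TPM + 1) called 29 by the F-test. Fits of only the libraries compared called 18 at 8 h and 27 at 48 h, and without replicate 1 of the TGFβ arm at 0 h the F-test called 21 and the tests at 24 and 48 h called 9 and 14.

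**Figure D4:**
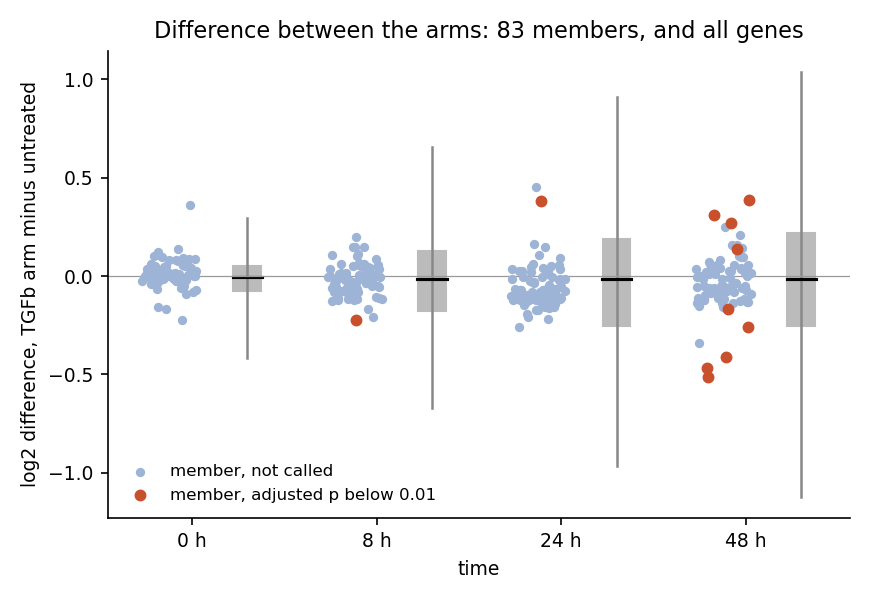
Log2 difference, TGFβ arm minus untreated, of the 83 members (points, jittered, red where the adjusted p was below 0.01) at 0, 8, 24 and 48 h from limma voom. The grey box and line beside each time give the quartiles and the 5th to 95th percentile of all 17453 genes, with the median in black. Most members lie within the 5th to 95th percentile of all genes, and 1, 1 and 9 of them are called at 8, 24 and 48 h.

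The single member called at 8 h was RPL21. It was already lower in the TGFβ arm at 0 h, with 443, 409 and 451 TPM against 465, 504 and 524 TPM and no overlap, a difference of -0.17 (adjusted p = 0.983 by limma voom). At 8 h it measured 464, 436 and 455 TPM in untreated cells and 361, 379.6 and 369.6 TPM with TGFβ, a difference of -0.22 (SE 0.0601, adjusted p = 0.00843) by limma voom. The change of that difference from 0 to 8 h was -0.06 (adjusted p = 0.781 by limma voom). The call was lost when any 1 of the 6 libraries at 8 h was left out, and the differences were 0.11 at 24 h and 0.07 at 48 h, both not called. The 4 members higher with TGFβ at 48 h were RPL39L, RPS27, RPLP1 and RPL6. RPLP1 measured 1537, 1503 and 1550.4 TPM in untreated cells and 2048, 1892 and 1922 TPM with TGFβ at 48 h, a difference of 0.27 (SE 0.0729, adjusted p = 0.00475) by limma voom. RPL6 was higher by 0.14, and RPS27, counted here on retained introns, by 0.31. The 5 lower members were RPL26, RPL22L1, RPS10, RPS26 and RPL10A, at -0.51, -0.47, -0.41, -0.26 and -0.17. RPL26, RPS10, RPS26 and RPS27 are among the 8 genes without their canonical transcript, and leaving those 8 out left 5 calls at 48 h, 3 higher and 2 lower. RPL10A, a 60S protein, measured 729.8, 725 and 740.3 TPM in untreated cells and 643, 631 and 645 TPM with TGFβ, and the groups did not overlap.

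Whether the difference between the arms itself moved within a library code was tested for 0 to 8 h and for 24 to 48 h. From 0 to 8 h no member passed, none reached an unadjusted p below 0.05 by limma voom, edgeR and DESeq2 also called 0, and 7.88% of all genes passed. From 24 to 48 h 1 member passed, RPS10, and 9.11% of all genes did. RPS10, whose matched transcripts gave 674 estimated counts on average, measured 19.6, 19.8 and 19.7 TPM at 24 h and 24.1, 27.7 and 26.8 TPM at 48 h in untreated cells. In the TGFβ arm it measured 21.4, 21.5 and 21.8 TPM at 24 h and 21.9, 20.0 and 16.3 TPM at 48 h. It rose in untreated cells by 0.35 and had -0.22 (adjusted p = 0.0936 by limma voom) in the TGFβ arm, a change of the difference of -0.57 (SE 0.139, adjusted p = 0.00658) by limma voom. The call of RPS10 was lost without replicate 1 or 2 of untreated cells at 24 h, 2 or 3 of untreated cells at 48 h, 1 or 3 of the TGFβ arm at 24 h, or 2 or 3 of the TGFβ arm at 48 h. For RPL22L1 the same change was -0.38 (SE 0.113, adjusted p = 0.024), short of the threshold.

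Base composition moved with the early differences. Across 83 members the Spearman correlation between the GC content of the transcript with most counts and the change of the arm difference from 0 to 8 h was 0.58, and across 17370 other genes, by the canonical transcript, it was 0.21. The points share libraries, and the part of base composition in the results was not tested. For 48 h minus 0 h the correlation with GC content was -0.22 in untreated cells and -0.10 in the TGFβ arm over the members, beside 0.17 and 0.22 over the other genes. With the mean level it was 0.05 and 0.06 over the members. Members with the pyrimidine run at a start had median changes of -0.35 in untreated cells and -0.40 in the TGFβ arm (n = 53), and members without it -0.30 and -0.39 (n = 13). Genes outside the family with the run had medians of 0.04 and 0.06 (n = 2303), and those without it -0.02 and -0.01 (n = 10127).

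Other genes of ribosome production were read from lists. Of 4 ribosomal proteins whose symbols lie outside the rule, 2 fell from 0 to 48 h in untreated cells and 3 in the TGFβ arm, with medians of -0.25 and -0.37. FAU, which encodes a 40S protein fused to a ubiquitin-like domain, fell by 0.32 and 0.44 on the log2 scale, and RACK1, a signalling scaffold on the 40S subunit, had -0.08 and -0.06. Of 13 translation factors and other mRNAs with TOP tracts, 4 rose and 5 fell in untreated cells and 4 rose and 4 fell in the TGFβ arm, with medians of 0.02 and 0.05. Among them EEF2, the translocation factor of elongation, had 0.45 and 0.49, and EEF1D, a subunit of the exchange factor of elongation, -0.78 and -0.67. Of all genes 27.1% were called lower in untreated cells and 28.1% in the TGFβ arm. In untreated cells 4887 of all 17453 genes were called higher.

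Of 78 mitochondrial ribosomal protein genes 48 fell and 1 rose in untreated cells, and 64 fell in the TGFβ arm, with medians of -0.28 and -0.50. At 48 h 24 of them (30.8%) were lower and none higher with TGFβ, where 16.4% of all genes were called lower. Of 29 ribosome biogenesis factors, which process rRNA and assemble the subunits, 17 fell and 1 rose in untreated cells from 0 to 48 h, and 26 fell in the TGFβ arm, with medians of -0.33 and -0.67. From 24 to 48 h 14 of them rose and 3 fell in untreated cells, where 2574 of all 17453 genes rose. In the TGFβ arm 11 of them fell, where 13.4% of all genes were called lower. The change of the arm difference in that interval passed the test in 16 of 29 factors, all toward lower values with TGFβ, against 1 of 83 members, and 15 were lower with TGFβ at 48 h. NOP56 and NOP58, core proteins of box C/D small nucleolar ribonucleoproteins, changed by -0.53 and -0.43 in that test. Of 12 RNA polymerase I genes 4 fell and 1 rose in untreated cells and 6 fell and 1 rose in the TGFβ arm. Of 14 mTORC1 and TOP regulators 6 fell and 3 rose in untreated cells and 5 fell and 1 rose in the TGFβ arm. The shares that fell, 33.3% and 42.9% in untreated cells and 50% and 35.7% in the TGFβ arm, stand beside 27.1% and 28.1% of all genes. LARP1 had -0.11 and -0.37.

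**Figure D5:**
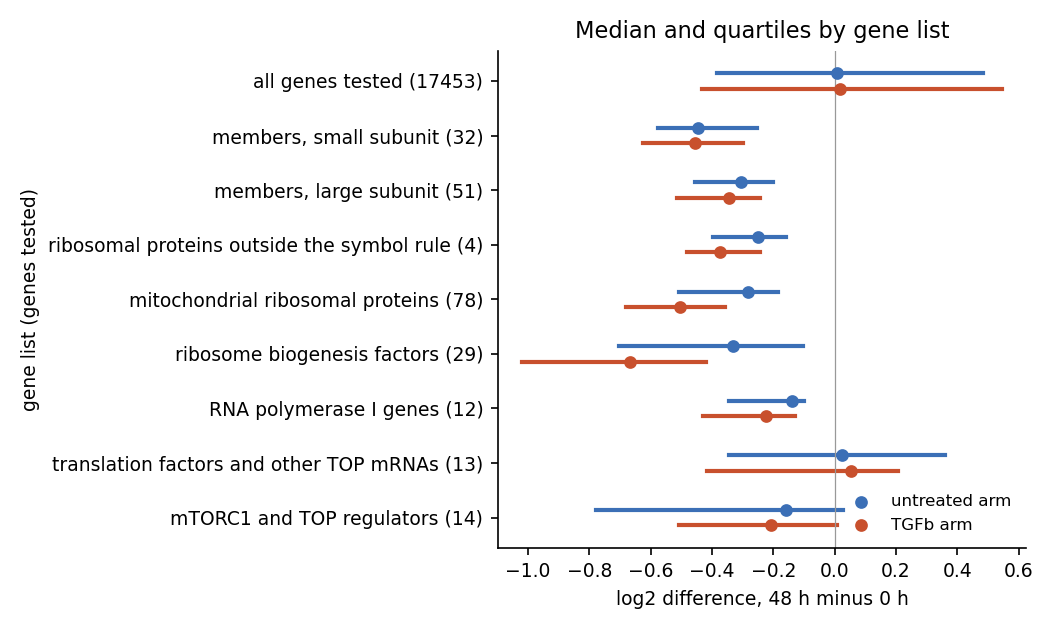
Median (point) and quartiles (line) of the log2 difference 48 h minus 0 h for the members of each subunit, 6 related gene lists and all genes tested (y axis, number tested in brackets), with blue for untreated cells and red for the TGFβ arm, from limma voom. The members of both subunits, the mitochondrial ribosomal proteins and the biogenesis factors lie below 0 in both arms, and the translation factors and all genes lie around 0. Scaled to 4 reference genes, the median over the members in the TGFβ arm would turn to 0.21 and that of all genes would move to 0.61.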

How the data were processed

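RNA from SK-MES-1 cells was sequenced in 24 libraries, 3 biological replicates for each of 2 arms and 4 times. The authors quantified reads with kallisto 0.43.0 against Ensembl transcripts of GRCh38 and deposited 1 table per library, with estimated counts and TPM per transcript. Of 173259 transcripts, 155518 were matched by identifier to GENCODE release 44 and summed to 34834 genes. The 17741 unmatched transcripts, which carry no gene name here, were left out of the gene sums. Depth was 46613589 to 77964234 estimated counts per library.

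Estimated counts were rounded to whole numbers. Genes with at least 10 counts in at least 3 libraries (17453) entered 1 limma voom fit of all 8 groups with TMM scaling (limma 3.58.1, edgeR 4.0.16, R 4.3.3). The study names limma voom with F-values, and the scaling, grouping and single contrasts were chosen here. Calls needed a Benjamini-Hochberg adjusted p below 0.01 over all genes. Alternatives covered edgeR's quasi-likelihood test, DESeq2 1.42.0, other scalings, filters and values, a replicate block, separate fits and each library left out. The fits were checked on simulated counts. Sequences at starts came from RefSeq's promoters on GRCh38.p14. Named were the paralogs and their counterparts, the stalk, members of known roles, the 3 largest changes each way among called members per comparison, the 5 highest and 5 lowest levels, and genes of written lists, of which a few are not reported here. The members and lists were chosen with earlier results of these data known. The list of snoRNA host genes was not analysed here, since none of its 10 genes was tested.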

Additional observations from a re-analysis of the deposited data

Results flagged for a closer look

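Differences between the arms that changed from one time to the next, by limma voom with an adjusted p below 0.01, stood in these genes. From 24 to 48 h the change for RPS10 was -0.57, the single call among 83 members. In the same interval it passed the test for 16 of 29 ribosome biogenesis factors, all toward lower values with TGFβ, for 4 of 78 mitochondrial ribosomal proteins, for 4 of 12 RNA polymerase I genes and for 2 of 14 mTORC1 and TOP regulators, where 9.11% of all genes passed, so the share of the mitochondrial genes (5.13%) lay below that of all genes. From 0 to 8 h it passed for 2 of 78 mitochondrial ribosomal proteins (2.56%, below the 7.88% of all genes), for 2 of 14 mTORC1 and TOP regulators and for no member. Groups of 3 libraries are too small for a test of single outlying samples.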

How the results depend on the processing

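The number of members called from 0 to 48 h stayed within 1.5 times of 58 in untreated cells and of 66 in the TGFβ arm under every alternative except the 4 reference genes, which gave 33 in untreated cells. Under that scaling the members' median turned to 0.30 for TGFβ minus untreated at 48 h, to 0.34 (untreated) and 0.27 (TGFβ arm) for 48 h minus 24 h and to 0.21 for 48 h minus 0 h in the TGFβ arm. It also turned, for 48 h minus 0 h in the TGFβ arm, RPL10 to 0.43, RPL11 to 0.079, RPL22 to 0.23, RPL26L1 to 0.075, RPL3 to 0.36, RPL36A to 0.20, RPL39 to 0.32, RPL41 to 0.17, RPL5 to 0.40, RPL7 to 0.34, RPL7L1 to 0.34, RPLP0 to 0.078, RPLP1 to 0.28, RPLP2 to 0.083, RPS18 to 0.40 and RPS6 to 0.14, and RPL3 to 0.078 in untreated cells. The median of all genes moved with them, to 0.61 for 48 h minus 0 h in the TGFβ arm. Of the 4 genes that set this scale, 2 were called higher and 2 lower in untreated cells from 0 to 48 h. Between the arms 2 of them were called lower with TGFβ at 24 h and 3 at 48 h, and none higher. From 24 to 48 h 3 of them fell in untreated cells and 2 in the TGFβ arm, and none rose.

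Members called, in the order 8 h, 24 h, 48 h and F-test between the arms, were 1, 1, 9 and 6 in the report. They were 0, 72, 64 and 74 with the 4 reference genes, 8, 28, 22 and 38 with library totals, 9, 10, 16 and 29 on log2(TPM + 0.1) and 9, 10, 17 and 29 on log2(TPM + 1). Fits of only the libraries compared gave 18 at 8 h, 27 at 48 h and 27 by the F-test, DESeq2 gave 12 by the F-test, length-scaled counts gave 2 at 8 h and 2 at 24 h, and a minimum count of 50 gave 2 at 24 h. Without the 8 members lacking their canonical transcript, an alternative chosen after seeing the data, 5 were called at 48 h and 0 for the change from 24 to 48 h. From 0 to 8 h in untreated cells the 13 calls became 54 with the reference genes, 23 with DESeq2 and 7 with library totals, and in the TGFβ arm the 35 became 4 with only the libraries compared. From 24 to 48 h the 35 calls in untreated cells became 61 with the reference genes, and the 26 in the TGFβ arm became 48 with the reference genes, 15 on either TPM scale and 11 with only the libraries compared. The single change of the arm difference from 24 to 48 h became 2 with the reference genes, 4 with DESeq2 and 0 with no filter. The cause of these moves was not tested.

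Leaving out 1 library gave 0 to 2 calls at 8 h, 1 to 9 at 24 h, 3 to 14 at 48 h and 2 to 21 by the F-test. It gave 7 to 27 for 0 to 8 h in untreated cells, 21 to 46 in the TGFβ arm, 24 to 44 for 24 to 48 h in untreated cells, 14 to 36 in the TGFβ arm and 0 to 2 for the change from 24 to 48 h. The highest of the counts between the arms came without replicate 1 of the TGFβ arm at 0 h. The 3 calls at 48 h came without replicate 2 of untreated cells at 48 h, the 2 by the F-test without replicate 3 of that group, the 14 from 24 to 48 h without replicate 2 of the TGFβ arm at 48 h (15 without replicate 1), and the 21 from 0 to 8 h without replicate 1 of the TGFβ arm at 0 h or 8 h. Of 2558 alternative values of the 66 called differences of named members, 2395 kept direction and call, 146 lost the call and 17 turned, all with the reference genes.

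The samples were not treated as pairs by replicate number, and whether the numbers pair them is not settled. Same-numbered libraries of the arms correlated at -0.06 to 0.25 in their deviations. A fit with the number as a block called 2 members rather than 1 for the change from 24 to 48 h and 10 at 48 h. At 0 h every replicate correlated best with its own number, and at 24 h replicates 1 and 2 did, which is a hint of pairing from the data only. At 48 h only replicate 3 did, and at 8 h none. The limits are the 8 members without their canonical transcript, 4 members whose equal copies were unmatched, and 3 libraries per group of 1 cell line. The library codes also run with the arms and, from 0 to 48 h, with time.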
